A study of Mus musculus with 2 samples.

Results

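The genes described here encode the cytosolic ribosomal proteins, the protein part of the machine that translates messenger RNA outside mitochondria. They were taken from both deposited tables by symbol: names made of Rpl or Rps and a number, with an optional letter or digit, together with *Rplp0*, *Rplp1*, *Rplp2* and *Rpsa*. The rule found 84 genes among 23532 with an estimate in both libraries. It leaves out kinases such as those named Rps6k, mitochondrial ribosomal proteins, and a few cytosolic ribosomal proteins with other names (such as *Fau*, *Rpl36al* and *Gnb2l1*), which are given separately. The symbol rule itself uses no measured value.

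The RNA came from mouse small-intestinal organoids, gut epithelium grown in Matrigel from isolated crypts in medium with epidermal growth factor, noggin and R-spondin. The strain is given as ChgA-GFP, a reporter of chromogranin A, which marks enteroendocrine cells and above all the serotonin-producing enterochromaffin cells. Freshly dissociated cells were sorted by fluorescence into a GFP+ fraction, about 1% of the epithelial cells, and the GFP- remainder, so both fractions carry the reporter allele and shared the culture medium. Polyadenylated RNA was amplified with a SMARTer kit for low input and sequenced, 1 library for each fraction. Age, sex, passage and the number of mice behind each library are not given in these sources.

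Each ribosome carries 1 copy of nearly every ribosomal protein, so cells make these proteins in step. The large (60S) subunit joins amino acids, the small (40S) subunit reads the messenger RNA, and the acidic proteins of the stalk, *Rplp0*, *Rplp1* and *Rplp2*, recruit the factors that drive translation. Their messenger RNAs are short and abundant, and many begin with a pyrimidine tract (the 5′ TOP motif) through which mTOR signalling and the protein Larp1 control translation. Fast-dividing crypt cells are rich in ribosomes. In mammals these genes have left many processed pseudogenes, intron-less copies scattered over the genome, which bear on any count of their reads.

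The tract was looked for in promoter sequences from RefSeq (GRCm38.p6), which hold an entry for 63 of the 84 genes. It was defined as a C followed by at least 4 pyrimidines, the C lying within 5 bases of the annotated start. It was present in 29 of the 63 genes (46.0%) and in 21.2% of the 27025 genes of the table. The stretches below run from 40 bases before to 20 bases after the start on the gene's own strand, with the tract in capitals. They show members with and without a tract, from genes that were high, low or unlike the rest in the libraries: *Rpl13a* (chr7:45128726-45128785, minus strand), *Rps18* (chr17:33955646-33955705, minus strand), *Rpl14* (chr9:120571477-120571536, plus strand), *Rps2* (chr17:24720023-24720082, plus strand), *Rps6* (chr4:86857348-86857407, minus strand), *Rpl4* (chr9:64173347-64173406, plus strand) and *Rpl5* (chr5:107900488-107900547, plus strand).
Rpl13a: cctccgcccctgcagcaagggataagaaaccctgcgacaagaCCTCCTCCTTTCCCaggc
Rps18: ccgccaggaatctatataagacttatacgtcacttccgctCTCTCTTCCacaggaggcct
Rpl14: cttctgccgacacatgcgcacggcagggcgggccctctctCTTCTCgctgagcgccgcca
Rps2: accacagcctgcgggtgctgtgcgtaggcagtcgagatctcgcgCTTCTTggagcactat
Rps6: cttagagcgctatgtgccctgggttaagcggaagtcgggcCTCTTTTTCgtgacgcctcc
Rpl4: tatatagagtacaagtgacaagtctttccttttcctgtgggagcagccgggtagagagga
Rpl5: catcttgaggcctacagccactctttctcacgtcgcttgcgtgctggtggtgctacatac

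In the 300-base windows (250 before to 50 after the start, both strands), CGGAAG, the core bound by ETS factors such as GABP, was found for 42 of the 63 genes (66.7%) and for 18.8% of all genes. AAGATGGC, the core of the YY1 site, was found for 6 (9.52%) against 3.19%. A TATAAA box between 40 and 20 bases before the start was found for 1 (1.59%) against 2.25%. These are matches of letters, and a missing match says only that the letters are not in that window.

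Levels are in FPKM, the number of fragments for each kilobase of transcript after scaling for library size, and so are per length. In the GFP- library 54 of the 84 genes were at 10 FPKM or more and 29 at 100 FPKM or more. In the GFP+ library 38 reached 10 FPKM and 11 reached 100 FPKM. Of the 100 genes with the highest FPKM in each library, 9 were ribosomal protein genes in GFP- and 0 in GFP+, and of the top 500, 20 and 8.

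Together the 84 genes summed to 15146 FPKM, or 2.42% of all FPKM, in the GFP- library, and to 3101 FPKM, or 0.762%, in the GFP+ library. Their share of the summed FPKM was thus 3.18 times larger in GFP-. That ratio does not move when either library is rescaled as a whole. Both totals leave out 5 rows without an estimate in GFP+, *Chga* and *Chgb* among them. The shares and their ratio depend on that omission. A few genes held most of the members' sum: the 10 highest members made up 60.8% of it in GFP- and 58.4% in GFP+.

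The difference of each gene was taken as log2((FPKM + 1) in GFP+ / (FPKM + 1) in GFP-). Of the 84 genes, 81 had the higher FPKM in GFP-, *Rpl5* had the higher FPKM in GFP+, and *Rpl10l* and *Rpl39l* were listed at 0 in both. At least 2-fold lower in GFP+ were 63, against 23.1% of the 11868 genes that reached 1 FPKM in the higher library. At least 4-fold lower were 35, against 4.59%. Of the members 72 reached 1 FPKM, 63 of them in both libraries and 9 in GFP- alone, and the last 9 could differ in 1 direction only. None was 2-fold higher, against 20.1% of all genes (7.09% were 4-fold higher). With 1 library per fraction there is no replicate check and no test between fractions, so each of these values describes the 2 libraries.

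In both libraries 38 members reached 10 FPKM or more. All 38 passed the 2-fold rule as lower in GFP+, and 29 passed the 4-fold rule. Of the 5525 other genes under the same filter, 1664 passed the 2-fold rule as lower and 314 the 4-fold rule. The plain ratios of the 38 members ran from 2.26-fold to 6.94-fold lower with a median of 4.85-fold. The members lay close together: their differences had a median of -2.25 and an SD over genes of 0.33, while 5525 other genes under the same filter had a median of -0.47 and an SD of 1.05. Narrow spreads were not particular to the members. Under that filter the SD was 0.43 over 66 mitochondrial ribosomal protein genes and 0.42 over 67 respiratory chain subunits. It was 0.45 over 13 other messenger RNAs with a 5′ TOP tract. The log2 levels in GFP+ and GFP- had a Pearson r of 0.97 over the 38 members and 0.71 over the 5525 other genes. This describes genes that share the same pair of libraries. On the log2(FPKM + 1) scale low genes are understated, and over the 80 members above 0 in both libraries the median plain ratio was 4.34-fold lower.

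**Figure D1:**
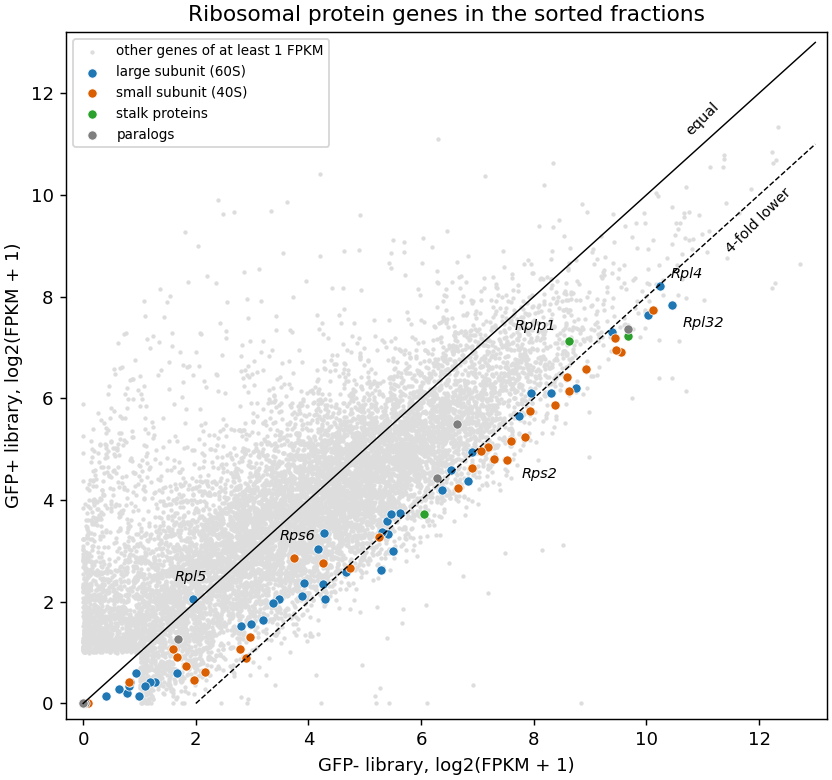
Level of each gene in the GFP- library (x axis) and in the GFP+ library (y axis), both as log2(FPKM + 1). Grey points are other genes that reached 1 FPKM in 1 or both, coloured points the 84 ribosomal protein genes by role. The members of at least 10 FPKM in both lie in a narrow band near the dashed line of a 4-fold lower level, while *Rpl5* lies on the line of equal levels.

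How far the lower level reaches depends on how the libraries are scaled, which the deposited values fix and which no source used here describes. The 5563 genes that reached 10 FPKM in both had a median log2 ratio of -0.50. With that median set to 0, 58 of 72 tested members were still at least 2-fold lower (12.5% of all genes were) and 9 at least 4-fold lower (1.51% of all genes). With both libraries rescaled to one total, which adds 0.62 to each log2 ratio, 53 were 2-fold lower (10.4% of all genes) and 3 were 4-fold lower (1.09%). That total also leaves out the rows without an estimate in GFP+. *Rpl5* was the only tested member above 0 under the deposited scaling and under both of these. Lower genes made up 53.5% of all 2-fold calls as deposited, 29.3% with the median set to 0 and 23.8% with one total.

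The large-subunit list held 43 genes. Of these, 31 were at least 2-fold lower and 14 were 4-fold lower, against 23.1% and 4.59% of all genes that reached 1 FPKM. With the median ratio set to 0 the counts were 28 and 4, and with one total 25 and 1. The median difference as deposited was -1.89 over the 36 that reached 1 FPKM. The highest was *Rpl32* (locus listed at chr6:115774557-115808743, mm10, merged with neighbouring rows), at 1399 FPKM in GFP- and 227 in GFP+, a difference of -2.62. *Rpl4*, which lines the tunnel through which the new protein leaves the ribosome (chr9:64173387-64178562), was at 1208 FPKM in GFP- and 297 in GFP+, a difference of -2.02. *Rpl41*, the smallest ribosomal protein, was at 1042 and 197 FPKM. All 3 were at least 4-fold lower in GFP+.

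Among the lowest differences of the large subunit was that of *Rpl13a*, also known for a role outside the ribosome in silencing translation of inflammatory messenger RNAs. It was at 428 FPKM in GFP- and 73.0 in GFP+ (-2.54). Its row also carries the names of a microRNA and a small nucleolar RNA. *Rpl3*, which reaches toward the peptidyl transferase centre, was at 82.2 and 17.4 FPKM (-2.18), and *Rpl8*, at that centre, was at 673 and 158 FPKM (-2.08).

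The other 4-fold lower genes of the large subunit covered a wide range of levels. *Rpl14* was at 316 FPKM in GFP- and 67.5 in GFP+ (-2.21), *Rpl7* at 212 and 49.1 FPKM (-2.09), and *Rpl39*, a very short protein in the exit tunnel, at 113 and 19.7 FPKM (-2.46). Lower levels were listed for *Rpl13* (44.1 and 7.02 FPKM), *Rpl30* (41.5 and 9.06 FPKM), *Rpl38* (24.6 and 5.04 FPKM) and *Rpl35* (18.5 and 3.14 FPKM), with differences from -2.49 to -2.08. *Rpl38*, known for its part in translating Hox messenger RNAs during development, has a listed locus of 413 kb that 5 rows share. The 17 genes that passed the 2-fold but not the 4-fold rule had differences between -1.97 and -1.07.

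*Rpl5* was the exception. With *Rpl11* it carries the 5S ribosomal RNA into the ribosome, and free of the ribosome both bind Mdm2, the brake on p53. It was listed at 2.84 FPKM in GFP- and 3.15 in GFP+, a difference of 0.11. Its listed locus (chr5:107900528-107987077) covers 86.5 kb and is shared with the row of *Fam69a*, a gene named here after its values were seen, which was at 9.64 and 4.35 FPKM. *Rpl11* itself was at 0.770 and 0.335 FPKM, below the 1 FPKM filter in both libraries. Among large-subunit genes that reached 1 FPKM, the highest differences after *Rpl5* were those of *Rpl28* (1.14 and 0.267 FPKM, -0.76) and *Rpl10a* (1.29 and 0.335 FPKM, -0.78), both near the filter, where the added 1 FPKM shrinks a ratio of 4.28-fold or 3.85-fold lower.

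The small-subunit list held 31 genes. Of these, 26 were at least 2-fold lower and 18 were 4-fold lower, against 23.1% and 4.59% of all genes that reached 1 FPKM. With the median ratio set to 0 the counts were 25 and 5, and with one total 24 and 2. The median difference as deposited was -2.18 over the 29 that reached 1 FPKM. The lowest was *Rps2* at 184 FPKM in GFP- and 26.5 in GFP+ (-2.75). *Rps20*, on the head of the subunit, was at 229 and 37.0 FPKM (-2.59). Their plain ratios were 6.94-fold and 6.17-fold lower in GFP+.

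*Rps14* was the highest gene of the small subunit, at 1112 FPKM in GFP- and 213 in GFP+ (-2.38), and *Rps9* was at 691 and 145 FPKM (-2.24). *Rpsa*, which is also known as a laminin receptor, was at 192 and 34.9 FPKM (-2.43). *Rps19* and *Rps24*, in which mutations cause the inherited anaemia Diamond-Blackfan syndrome, were at 393 and 69.5 FPKM and at 99.5 and 17.9 FPKM (-2.48 and -2.41). *Rps3*, at the entry of the messenger RNA channel, was at 489 and 94.6 FPKM (-2.36).

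Other members of the small subunit had like differences at other levels. *Rps18* was at 330 FPKM in GFP- and 57.5 in GFP+ (-2.50), and *Rps3a1* at 244 and 53.0 FPKM (-2.18). *Rps4x*, whose gene lies on the X chromosome, was at 155 and 27.1 FPKM (-2.47). *Rps21* (145 and 32.2 FPKM), *Rps26* (132 and 30.3 FPKM), *Rps25* (118 and 23.8 FPKM) and *Rps10* (25.6 and 5.36 FPKM) lay between -2.27 and -2.06. *Rps15* was at 386 and 84.1 FPKM (-2.18) on a merged locus of 672 kb that 50 rows share, and its upper bounds were wide, at 6419 and 2157 FPKM.

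Of the small-subunit genes that reached 1 FPKM, those nearest to no difference were low in both libraries. *Rps27* was at 2.04 FPKM in GFP- and 1.12 in GFP+ (-0.52), *Rps15a* at 2.18 and 0.881 FPKM (-0.76). *Rps6*, the substrate of S6 kinase and a common readout of mTOR activity, was at 12.4 and 6.27 FPKM (-0.88), which is 1.98-fold lower and just outside the 2-fold rule on either scale.

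Among genes that reached 10 FPKM in both, the 17 of the small subunit had a median of -2.41 and all 17 were at least 4-fold lower. The 15 of the large subunit had a median of -2.08 and 9 were at least 4-fold lower. Differences ran from -2.75 to -2.09 in the small subunit and from -2.62 to -1.74 in the large, so the ranges overlap over most of their length. Whether the subunits differ was not tested, since genes are not replicates.

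The 3 stalk genes did not have equal differences. *Rplp0*, the base of the stalk (chr5:115559467-115563729), was at 814 FPKM in GFP- and 149 in GFP+ (-2.44). *Rplp2* was at 65.7 and 12.3 FPKM (-2.33). *Rplp1*, the partner of *Rplp2* in the stalk dimer, was at 395 and 139 FPKM (-1.50), a fold of 2.85 against 5.47 and 5.35 for the other two. With one total *Rplp1* was at -0.88 and no longer passed the 2-fold rule.

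The paralogs are relatives of ribosomal proteins that replace them in some cells or at some times. Of 8 listed, 7 had rows. *Rps27l*, a p53-responsive relative of *Rps27*, was at 812 FPKM in GFP- and 164 in GFP+ (-2.30), among the highest members. In both libraries it was listed far above its parent *Rps27* at 2.04 and 1.12 FPKM. Exact copies at other loci, counted below, were found for 100% of the 50-base coding windows of *Rps27* and 48.3% of those of *Rps27l*. The gap between their listed levels is therefore uncertain. *Rpl22l1* was at 77.1 and 20.6 FPKM (-1.85), above *Rpl22* (43.3 and 12.3 FPKM, named here as its parent). *Rpl7l1*, a nucleolar relative of *Rpl7*, was at 99.1 and 43.9 FPKM (-1.16), the least lowered of the 38 well-measured members, below *Rpl7* at 212 and 49.1 FPKM. Under the scalings by median ratio and by total its differences were -0.67 and -0.55, no longer 2-fold lower. Without the paralogs the median over 68 members was -2.01.

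*Rps4l* was at 2.20 and 1.42 FPKM (-0.40) on a merged locus that 5 rows share. The heart- and muscle-type *Rpl3l* was at 0.0285 FPKM in GFP- and listed at 0 in GFP+. *Rpl10l* and *Rpl39l*, which are known from the testis, were listed at 0 in both. No fold is given for these.

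The ribosomal proteins outside the naming rule were lower too. *Gnb2l1* (Rack1), a scaffold on the small subunit, was at 659 FPKM in GFP- and 122 in GFP+ (-2.43). *Fau*, which encodes a ribosomal protein fused to a ubiquitin-like protein, was at 6.38 and 2.13 FPKM (-1.24). *Rpl36al* was at 215 and 76.5 FPKM (-1.48). Under one total *Fau* and *Rpl36al* were at -0.79 and -0.87 and no longer 2-fold lower.

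Ribosomal protein transcripts are short, and short transcripts as a class were lower in GFP+. The 72 tested members had a median annotated length of 843 bases (GENCODE M21), against 2815 bases for the other tested genes. Among other genes that reached 10 FPKM in both, the median difference was -1.37 for transcripts under 1 kb (491 genes), -0.92 from 1 to 2 kb, -0.29 from 2 to 4 kb and 0.20 at 4 kb or more. Members of the same length classes were at -2.30 (25 genes), -2.24 (10 genes) and -1.74 (3 genes). The last class holds *Rps20*, whose annotated transcript is longer than its listed locus. Of the 491 short other genes 65.6% were 2-fold lower and 17.1% were 4-fold lower, and of the 25 short members all were 2-fold lower and 19 were 4-fold lower.

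Each tested member was then set beside all other genes whose transcript length was within a factor of 1.5 and whose mean log2(FPKM + 1) was within 1. There were between 21 and 1842 such genes per member (median 244.5). The median over members of these genes' median difference was -1.11, well below the -0.12 of all tested genes. The members were lower still, by a median of -0.85, and 68 of 72 lay below the median of their own comparison genes and 52 below the first quartile. Among the 38 well-measured members 34 lay below the first quartile, and a median of 11.2% of the comparison genes were lower than the member.

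*Rps2* was at -2.75 while 566 other genes of like length and level had a median of -1.25. *Rplp0* was at -2.44 beside a median of -0.99 over 169 genes. The abundant *Rpl41* and *Rpl32* had few comparison genes, 21 and 28, and these were low as well, at -1.96 and -1.92. The 4 members that did not lie below their comparison genes were *Rplp1* (-1.50 against -1.54), *Rps6* (-0.88 against -0.99), *Rps27* (-0.52 against -1.05) and *Rpl5* (0.11 against 0.04). The value for *Rps20* rests on an annotated transcript of 3706 bases, longer than its listed locus.

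**Figure D2:**
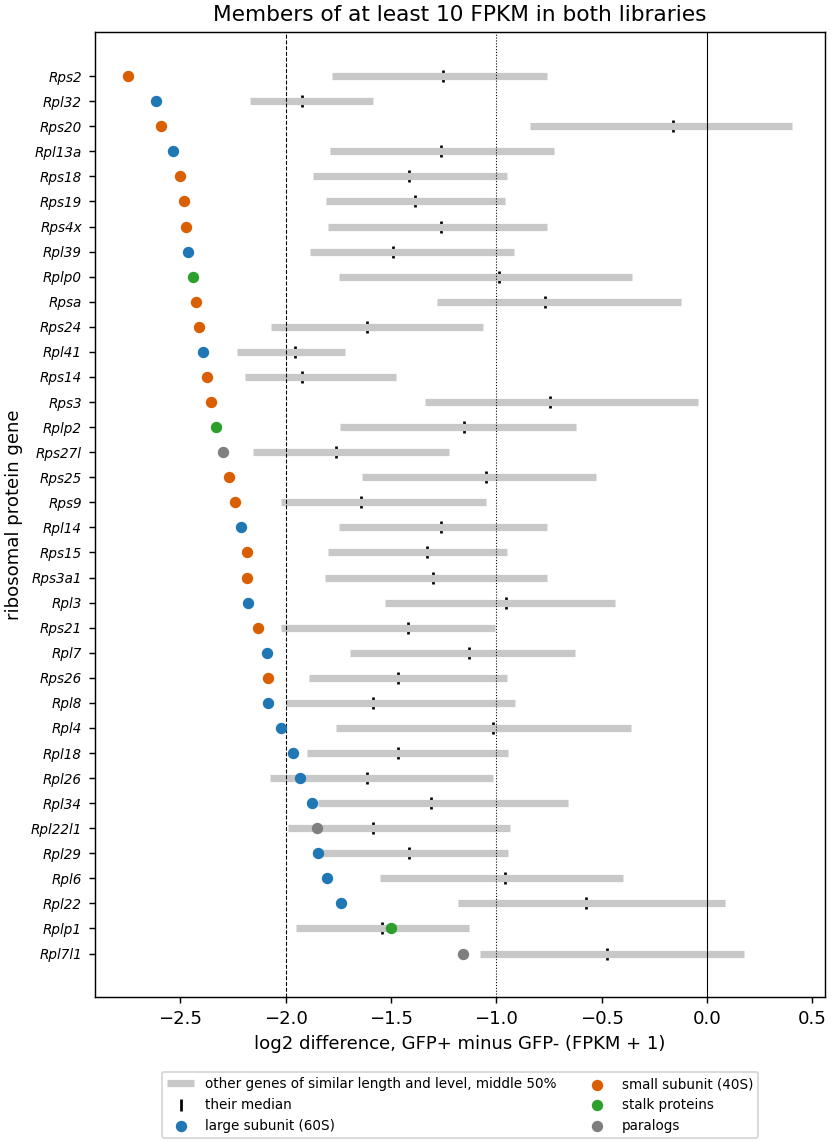
Log2 difference (GFP+ minus GFP-, FPKM + 1) of 36 of the 38 ribosomal protein genes that reached 10 FPKM in both, sorted, each beside the middle 50% (grey bar) and median (black tick) of other genes of similar length and level. The dotted and dashed lines mark 2-fold and 4-fold lower. For 32 of the 36 the point lies left of the grey bar, and *Rplp1* lies inside it.

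The size of this remainder depends on which length is used. With genes alike in length only, it was -0.95. With genes alike in level only, it was -1.61. With coding length in place of transcript length, an alternative chosen after the data were seen, it was -1.22 and all 72 members lay below their comparison genes. In none of the alternatives run did it reach 0.

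Among the 35 well-measured members without paralogs, Spearman's rho between transcript length and difference was -0.02. The lengths covered a narrow range, as only 3 of the 38 well-measured members were over 2 kb. They include *Rps20*, whose annotated transcript of 3706 bases is longer than its listed locus. A relation to length within the members can therefore not be judged from this value. Over the same 35 genes rho between the GFP- level and the difference was -0.39. Members with a tract matched near the annotated start and at least 10 FPKM in both (14 genes) had a median difference of -2.27, ranging from -2.75 to -1.85. Those with a promoter entry but no tract (14 genes) had a median of -2.23, from -2.48 to -1.16. The medians differ by less than the spread within either set. This split cannot separate TOP from other messenger RNAs, because it depends on where the start is annotated. A pyrimidine run further from that start counts as no tract, as in the *Rpl4* stretch printed above. Whether the tract bears on the difference was not tested.

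Although ribosomes hold these proteins in nearly equal numbers, the listed levels of the members spanned 4 orders of magnitude. Exact copies elsewhere in the genome were therefore counted. Each member's coding sequence was read in all windows of 50 bases (GENCODE M21), and a window was called shared if it occurred, base for base, at another annotated locus, pseudogenes included. For *Rps4l*, which had no coding interval, the whole transcript was read. At least 1 window was shared in 81 of the 84 genes, with a median of 8.5 other loci and at most 120 (*Rpl7a*, named here after its value was seen). At least 50% of windows were shared in 67 members (79.8%) and in 4.08% of the other tested genes.

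The windows below are, for each of 3 genes, the one found at most other loci. They were chosen after the values were seen, from the high and the low end. The *Rpl4* window (coding bases 45 to 94) occurs at 1 other locus (1208 FPKM). The *Rpl23a* window (coding bases 250 to 299) occurs at 17 others (0.322 FPKM in GFP-, 0.107 in GFP+). The *Rps12* window (coding bases 329 to 378) occurs at 21 others (0.0618 FPKM in GFP-, listed at 0 in GFP+).
Rpl4: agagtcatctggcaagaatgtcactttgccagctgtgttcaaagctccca
Rpl23a: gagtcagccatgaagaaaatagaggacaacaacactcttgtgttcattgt
Rps12: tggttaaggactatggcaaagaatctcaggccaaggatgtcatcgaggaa

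Of the 77 members that are not paralogs, 4 had under 25% of their windows shared and a median level of 710 FPKM in GFP-. The 7 with 25 to 50% had 428 FPKM, the 6 with 50 to 75% had 264 FPKM, and the 30 with 75 to under 100% had 86.7 FPKM. The 30 whose windows were all shared had 2.70 FPKM, and 22 of them were below 10 FPKM in GFP-. The single fully shared gene above 100 FPKM was *Rpl41*. Spearman's rho between the shared share and FPKM was -0.79 in GFP- and -0.78 in GFP+ over these genes, and -0.83 in both with windows of 100 bases over 76 genes. The points share their libraries and the authors' handling of reads with several matches, which no source used here describes, and the part of that handling in the levels was not tested.

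**Figure D3:**
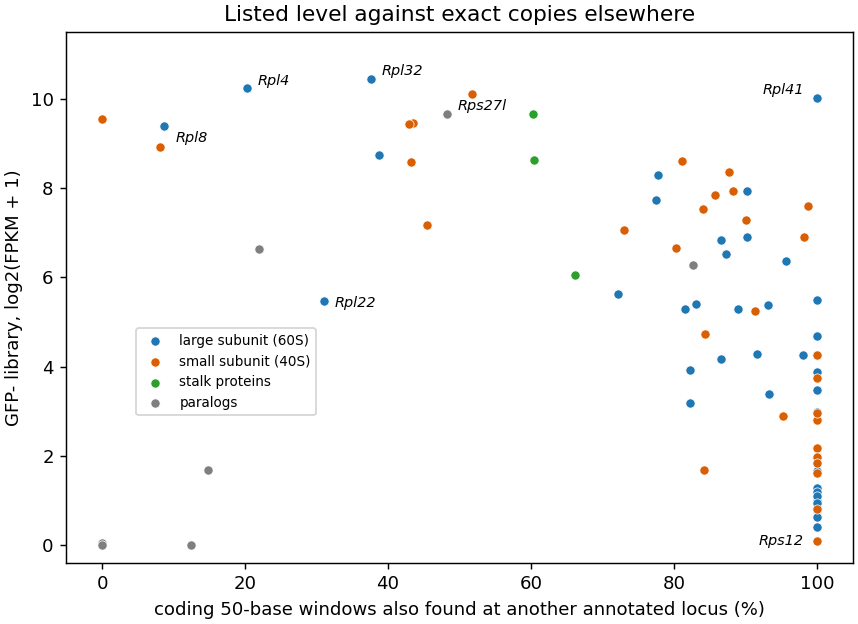
Level in the GFP- library as log2(FPKM + 1) (y axis) against the percent of 50-base coding windows that also occur at another annotated locus (x axis), for the 84 members by role. The windows of *Rps4l* cover its whole transcript. Levels fall from the upper left, where *Rpl4* shares few windows, to the lower right, where *Rps12* has all windows shared. The paralogs at the lower left have few shared windows and low levels.

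The ratio between the libraries changed far less across these classes than the level. Median plain ratios were 4.71-fold, 4.75-fold, 4.78-fold, 4.65-fold and 3.85-fold lower in GFP+ from the least to the most shared class. Levels of single members, and the order of the low members in particular, are therefore uncertain, and this holds for *Rpl5*, *Rps6*, *Rpl11*, *Rps27* and *Rps15a*, whose windows were shared at 100%, 100%, 100%, 100% and 84.2%. Of 6 rows named as pseudogenes, 2 were above 10 FPKM in both libraries. *Rpl14-ps1* was at 657 FPKM in GFP- and 146 in GFP+ (-2.16), while *Rpl14* was at 316 and 67.5 FPKM (-2.21). A row that joins *Rplp2-ps1* and *Wdr89* was at 243 and 50.3 FPKM (-2.25), above *Rplp2* itself.

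Other parts of the translation apparatus and other lists of short transcripts were placed beside the members. For comparison, 23.1% of all genes that reached 1 FPKM were 2-fold lower and 4.59% were 4-fold lower. Of 19 further messenger RNAs with a known 5′ TOP tract, 13 were 2-fold lower and 2 were 4-fold lower (median -1.55). *Eef1g*, a subunit of elongation factor 1, was at 81.8 FPKM in GFP- and 17.0 in GFP+ (-2.20), and *Eef1b2*, another, was at 78.5 and 20.2 FPKM (-1.90). *Snhg1*, a host gene of small nucleolar RNAs, was at 25.3 and 4.06 FPKM (-2.38). Of 9 genes that act on nascent chains or on free subunits 6 were 2-fold lower and 0 were 4-fold lower (median -1.16), with *Btf3* at 168 and 48.2 FPKM (-1.78) and *Eif6*, which keeps free 60S subunits apart, at 440 and 163 FPKM (-1.43). With the median ratio set to 0, 2 of the 9 were 2-fold lower, and with one total 1 was. *Eif6* was not among them, at -0.93 and -0.81, and 1 of the 9 was 2-fold higher under either scaling. Over all genes 12.5% were lower and 30.2% higher with the median ratio set to 0, and 10.4% and 33.3% with one total.

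Genes of the mitochondrial ribosome, a separate set of proteins, were lower as well. Of 76 tested, 70 were 2-fold lower and 13 were 4-fold lower (median -1.65), and *Mrpl12* was lowest at 557 FPKM in GFP- and 86.9 in GFP+ (-2.67). Of 70 respiratory chain subunits, 63 were 2-fold lower and 6 were 4-fold lower, with a median of -1.70. Among all genes that reached 1 FPKM these shares were 23.1% and 4.59%. *Uqcrc1*, of complex III, was at 1579 and 326 FPKM (-2.27). Mitochondrial ribosomal proteins had a median of 0% shared windows, so they lack the copies that most cytosolic members have. With one total the medians of these 2 lists were -1.06 and -1.09, and that of the cytosolic members was -1.41.

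**Figure D4:**
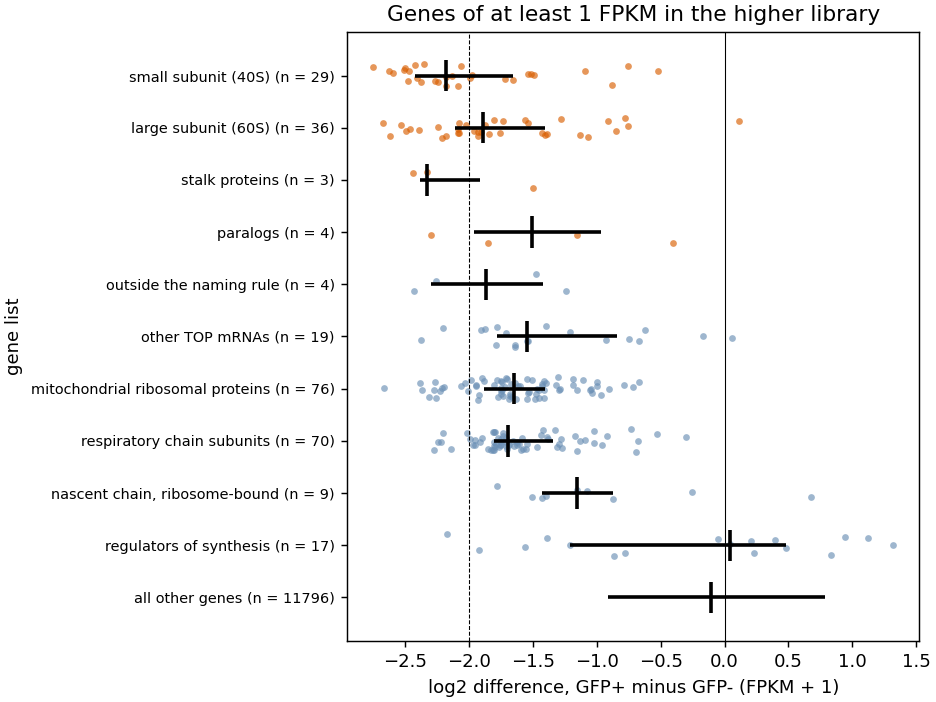
Log2 difference (GFP+ minus GFP-, FPKM + 1) of genes that reached 1 FPKM, by list. Each point is a gene, the thick lines give the median and the middle 50%, and single points are not drawn for all other genes. The small- and large-subunit lists have medians of -2.18 and -1.89, and the regulators of ribosomal protein synthesis lie on both sides of 0.

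The known regulators of ribosomal protein synthesis had no common direction. Of 17, 5 were at least 2-fold lower and 2 were 2-fold higher (median 0.04), beside 23.1% and 20.1% of all genes. *Myc*, which drives ribosome synthesis, was at 214 FPKM in GFP- and 46.7 in GFP+ (-2.17). *Eif4ebp1*, the inhibitor of cap-dependent translation that mTOR switches off, was at 191 and 49.7 FPKM (-1.92), and *Akt1* at 64.7 and 21.2 FPKM (-1.57). The 2 that were 2-fold higher, *Tsc2* and *Rptor*, were at 9.10 and 24.2 FPKM (1.32) and at 3.71 and 9.27 FPKM (1.12), and are named here after their values were seen. With the median ratio set to 0, 3 were 2-fold lower and 4 were 2-fold higher (median 0.51), and with one total 2 and 6 (median 0.62). The shares of all genes were 12.5% lower and 30.2% higher under the first scaling, and 10.4% and 33.3% under the second.

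Markers of several cell types differed between the fractions. Of 8 enteroendocrine markers, 6 had an estimate in both libraries and all 6 were at least 2-fold higher in GFP+ (summed FPKM 123 in GFP- and 4780 in GFP+). The remaining enteroendocrine markers, *Chga* and *Chgb*, had no estimate in GFP+, where their rows are listed at 0 with a status for too many fragments. Of 12 markers of cycling cells, 10 were at least 2-fold lower and 8 were 4-fold lower (median -2.22), with summed FPKM of 1022 and 219. All 7 Paneth markers were 4-fold lower (17479 and 1066 FPKM). Of the 6 stem cell markers 4 were 2-fold lower (1422 and 370 FPKM). Of the 6 goblet, 5 tuft and 8 enterocyte markers that reached 1 FPKM, 2, 4 and 2 were 2-fold lower. Summed over the 7, 6 and 8 listed, they were at 3165 and 1354 FPKM, 18.0 and 5.42 FPKM, and 3538 and 1677 FPKM. Of all genes that reached 1 FPKM, 23.1% were 2-fold lower, 4.59% were 4-fold lower and 20.1% were 2-fold higher. Of the enterocyte markers 2 were also 2-fold higher and the median was 0.04. Of 7 non-epithelial markers 5 were 2-fold higher (5.73 and 254 FPKM, of which *Vim* made 237 FPKM in GFP+). No marker with an estimate was at 0 in either library. The medians of the cycling-cell markers (-2.22) and of the ribosomal protein genes (-1.99) are not matched for length. Their median transcript lengths were 3201 and 843 bases, and short transcripts were lower as a class. The part of the makeup of the fractions in the lower ribosomal protein levels was not tested. In bulk RNA, fewer cells of a type and less RNA per cell cannot be told apart.

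The deposited bounds were wide. The lower bound was 0 for all 84 members in both libraries, and the upper bound was a median of 2.38 times the FPKM in GFP- and 2.77 times in GFP+. With lower bounds of 0, the bounds of the 2 libraries overlapped for all 84 members. The locus field of 32 members was shared with another row. Leaving these out gave a median difference of -1.87 over the remaining 45 tested members.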

How the data were processed

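Values are FPKM as deposited by the authors, 1 table per library, per the file headers. The submitters' processing notes name FastQC, TopHat2 0.7, Cufflinks, Cuffdiff and the mm10 genome. The annotation, strandedness, library scaling and treatment of reads with several matches are not given in these sources, so overlapping and antisense transcripts cannot be told apart. The members and lists were chosen with earlier results of these data known. FPKM was summed per symbol, and 5 rows without an estimate in GFP+ were left out. The 11868 genes that reached 1 FPKM in 1 or both libraries were set side by side as log2(FPKM + 1), by size rules of 2-fold and 4-fold, with no test. Of the members, 9 reached 1 FPKM through GFP- alone. Depth is not given: steps in low values put 1 FPKM and kilobase near 59.0 (GFP-) and 59.8 (GFP+) fragments.

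Named members are, for each subunit, the 3 highest and 3 lowest differences and the 3 highest levels, all stalk genes and paralogs, those above 0 or 4-fold lower, and 5 fixed genes (*Rpsa*, *Rps6*, *Rpl3*, *Rpl5*, *Rpl11*). From each other list up to 3 genes with the largest difference were eligible. Transcript lengths and shared windows come from GENCODE M21 (mm10 assembly), promoters from RefSeq. Comparison by length and level was tried on simulated data only with matching on the GFP- level and with all levels raised. Matching on the mean level of both libraries, as reported above, was not simulated. Protein sequences were not used here, and a few members of these lists are not reported by name, though counts and medians include them. Python 3.11.15, pandas 2.3.3, numpy 2.4.6 and scipy 1.17.1 were used.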

Additional observations from a re-analysis of the deposited data

How the results depend on the processing

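No count or median of the ribosomal protein genes changed direction. The goblet marker *Zg16* went from -0.43 to 0.06 with the median ratio set to 0 and to 0.18 with one total, and the median of all tested genes from -0.12 to 0.33 and 0.44. The median difference of the ribosomal protein genes (-1.99, interval over genes -2.13 to -1.81) was -1.65 with a pseudocount of 5, -2.16 with at least 10 FPKM in the higher library, -1.52 with the median ratio set to 0 and -1.41 with one total. The number at least 4-fold lower fell from 35 to 9 and 3 under these 2 scalings. The number at least 2-fold lower ran from 50 (pseudocount 5) to 67 (pseudocount 0.1), and 0 were 2-fold higher under each of the 9 alternatives. The median difference from genes of similar length and level (-0.85) was -0.63 with a pseudocount of 5, -1.61 matching on level only, -0.71 matching on the GFP- level and -1.22 by coding length. Joined rows, status and repeated symbols moved no count of members by more than 2. Of 86 named genes, 7 no longer passed the 2-fold rule with one total and 4 with the median ratio set to 0. No paired analysis was possible because each fraction has 1 library.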
